A study of Mus musculus with 6 samples.

Results

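The integrin chains (gene symbols beginning with Itga or Itgb) and the laminin chains (Lama, Lamb and Lamc) were followed in colorectal tissue of mice with colitis. These 37 genes, among the 18268 in the table, were selected by symbol. The symbol rule was chosen with earlier results of these data known. They comprised 18 integrin alpha chains, 8 integrin beta chains and 11 laminin chains. All 6 mice were of the C57BL/6 strain and developed colitis through 7 days of dextran sulfate sodium (DSS), which damages the colonic epithelium. During 6 days, 3 of these colitis mice received the plant alkaloid berberine (BBR) by gavage and the other 3 received sulfasalazine (SASP), an established drug for colitis that gut bacteria cleave to an aminosalicylate. Age and sex are not given in the labels, and colitis was chemically induced in every mouse. Healthy mice and colitis mice without a drug were not analysed here, so each value below sets one drug against the other.

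An integrin is a receptor in the cell membrane made of 1 alpha and 1 beta chain, and the pair of chains decides which ligand it binds. A laminin is a secreted heterotrimer of 1 alpha, 1 beta and 1 gamma chain that forms a sheet in the basement membrane, the layer on which the gut epithelium, smooth muscle and vessels rest. In the colon, integrins with the alpha3 or alpha6 chain bind epithelial cells to laminin, and the alpha6 beta4 pair anchors the keratin skeleton in hemidesmosomes. Other pairs bind collagen or fibronectin, or activate the growth factor TGF-beta. Leukocytes carry integrins of their own, with which they adhere to vessels and enter tissue. These 8 leukocyte integrin chains were described apart from the other 18 integrin chains, one of which, Itgb1, also serves leukocytes.

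Levels are given as FPKM, a read density corrected for transcript length and library size, so that levels of different genes can be set side by side. Per mouse, 11518 to 12307 genes reached 1 FPKM, and an approximate depth estimate came to 16400000 to 18200000 reads. The labelled tissue showed the markers of gut epithelium, with 10 of 10 listed genes tested and a summed level of 7991 to 9461 FPKM, while 10 squamous epithelium markers summed to only 1.46 to 3.40 FPKM. BBR mouse 3 stood apart from its group, with a correlation of log2(FPKM + 1) across genes of 0.949 to 0.953 with the other BBR mice, against 0.987 between those and 0.982 to 0.989 among SASP mice. Its 10 smooth muscle markers summed to 6808 FPKM, against 2888 and 3046 FPKM in BBR mice 1 and 2 and 757.2, 2321 and 1724 FPKM in SASP mice 1 to 3. The labels do not state that the 6 samples came from separate animals. Each sample is called a mouse here, and p-values measure only the spread between these samples, which may be technical.

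Of the 37 genes, 27 reached 1 FPKM in at least 3 mice and were tested with limma on log2(FPKM + 1), and 10 stayed below that level. At an adjusted p under 0.05 over all genes, 3 of the 27 (11.1%) changed, beside 8.86% of the 12072 genes tested. Itga7 and Itgb5 were higher with BBR, where 3.82% of all genes passed, and Itga6 was lower, where 5.04% of all genes passed. The median difference in log2(FPKM + 1), BBR minus SASP, was 0.51 over these 27 genes and 0.10 over all genes tested. The values in the BBR mice all lay above or all lay below those in the SASP mice for 11 of the 27 (40.7%), beside 37.9% of all genes. For 9 of them (33.3%) the BBR mice were the higher, beside 21.3% of all genes, and for the other 2 (7.41%) they were the lower, beside 16.6%. Lama2, among these 9, entered the test through its BBR values alone, so these counts and the median of 0.51 are a description only. In bulk tissue, fewer cells of a type and less RNA per cell cannot be told apart.

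The number of genes past the threshold turned on single mice, over all genes as among the integrins and laminins. Without BBR mouse 3, which stood apart, 4 of 14 other integrins, 2 of 8 laminins and 0 leukocyte integrins passed, beside 33.8% of all genes. When another mouse was left out, the share of all genes fell to 1.10% (BBR mouse 1), 3.13% (BBR mouse 2), 0.494% (SASP mouse 1), 3.40% (SASP mouse 2) or 0.428% (SASP mouse 3), and the other integrins then had 0, 1, 0, 2 and 0 genes past it.

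**Figure D1:**
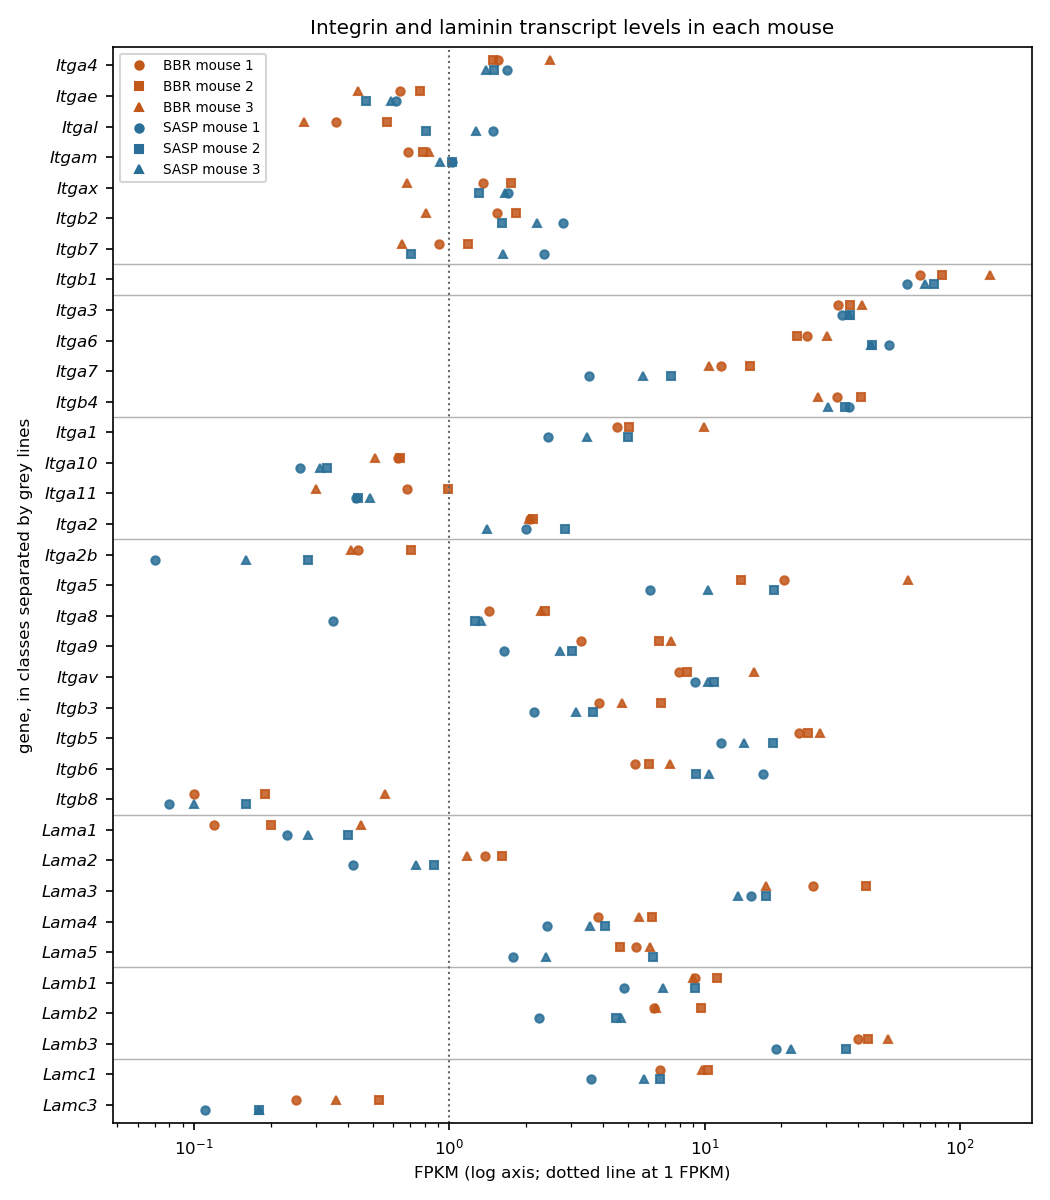
Transcript level (FPKM, log axis) of integrin and laminin genes in each mouse, with BBR mice in orange and SASP mice in blue and mouse 1, 2 and 3 as circles, squares and triangles; Itgad, listed at 0 in some mice, and 1 laminin chain are left out. Itgb1 was the most abundant chain, the leukocyte integrin chains lay near the dotted line at 1 FPKM, and Itga6 and Itgb6 were lower in every BBR mouse than in any SASP mouse.

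Of the 4 laminin receptor chains, 2 alpha chains passed the test, in opposite directions, beside 8.86% of all genes. Among the 27 tested genes, Itga6 had the smallest adjusted p. Itga6, the alpha chain of the laminin receptors alpha6 beta1 and alpha6 beta4, stood at 25.2, 23.1 and 30.2 FPKM in BBR mice 1 to 3 and at 52.9, 45.1 and 45.0 FPKM in SASP mice 1 to 3. All BBR mice were low, all SASP mice were high, and the groups lay well apart. The difference in log2(FPKM + 1) was −0.85 ± 0.13 (SE), with an adjusted p of 0.0185. Itga7, the alpha chain of the main laminin receptor of muscle, had levels of 11.6, 15.1 and 10.4 FPKM with BBR and of 3.52, 7.38 and 5.73 FPKM with SASP. Here the BBR mice were the high ones, again without overlap. The difference in log2(FPKM + 1) was 1.06 ± 0.25, with an adjusted p of 0.0460. Both genes kept their direction in every leave-one-out fit, but Itga6 did not pass without BBR mouse 1 (adjusted p = 0.0685), SASP mouse 1 (0.0893) or SASP mouse 3 (0.0839), and Itga7 passed only when the mouse left out was BBR mouse 3 (0.0218), its adjusted p being 0.101, 0.122, 0.133, 0.0519 and 0.138 without BBR mice 1 and 2 and SASP mice 1 to 3. With the smooth muscle marker level as a covariate, Itga6 differed by −0.84 in log2(FPKM + 1) with an adjusted p of 0.199, and Itga7 by 0.70 with an adjusted p of 0.358. The summed smooth muscle markers were higher in each BBR mouse than in any SASP mouse. Drug and marker level therefore cannot be told apart in this fit.

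The chains that pair with or stand in for Itga6 did not pass the test. They are given because they are its known partners, a choice made with the values in view, and their ratios carry no test. Itgb4, which joins Itga6 in the hemidesmosome, had 33.2, 40.8 and 27.8 FPKM with BBR and 36.9, 35.4 and 30.4 FPKM with SASP. Itga3, the alpha chain of the other epithelial laminin receptor, had 33.3, 37.0 and 41.4 FPKM with BBR and 34.6, 37.1 and 36.7 FPKM with SASP. Both pairs of groups overlapped, with differences in log2(FPKM + 1) of −0.02 ± 0.16 for Itgb4 (adjusted p = 0.927) and 0.04 ± 0.11 for Itga3 (adjusted p = 0.834). The FPKM ratio of Itga6 to Itgb4 was 0.760, 0.565 and 1.09 in BBR mice 1 to 3 and 1.43, 1.28 and 1.48 in SASP mice 1 to 3. Against Itga3, the ratio of Itga6 was 0.757, 0.623 and 0.730 with BBR and 1.53, 1.22 and 1.23 with SASP. Itga6 thus exceeded Itga3 in every SASP mouse and fell short of it in every BBR mouse. As a share of the summed FPKM of all integrin alpha chains, Itga6 took 16.1% to 21.7% with BBR and 32.8% to 44.1% with SASP. Itgb1, the beta chain that most alpha chains share and the most abundant of all 37 genes, measured 69.9, 85.4 and 131.6 FPKM with BBR and 61.9, 79.5 and 73.0 FPKM with SASP. BBR mouse 3 was the high one and the groups overlapped, at 0.37 ± 0.23 in log2(FPKM + 1) and an adjusted p of 0.301.

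**Figure D2:**
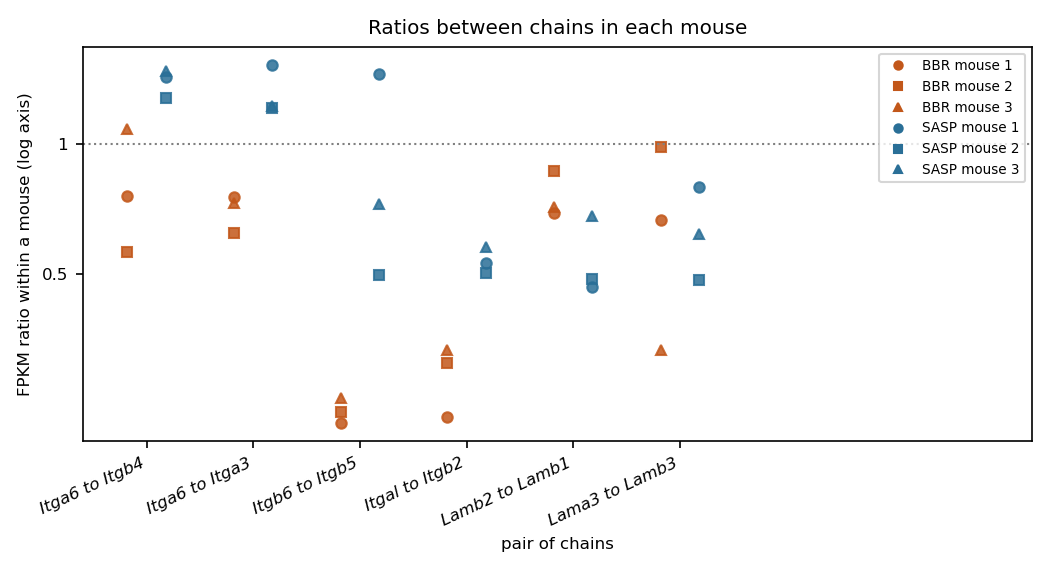
FPKM ratio of one chain to another within each mouse (log axis) for 6 pairs of partner or alternative chains, with BBR mice in orange and SASP mice in blue. Itga6 to Itga3 was 0.623 to 0.757 with BBR and 1.22 to 1.53 with SASP, Itgb6 to Itgb5 lay apart in the same direction, and the groups overlapped for Lama3 to Lamb3.

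Among the receptors for the RGD motif of fibronectin and vitronectin and their relatives, the beta chains Itgb5 and Itgb6 lay in opposite directions. Each can pair with the alpha chain Itgav, and both pairs are known as receptors of the latent form of TGF-beta, alpha-v beta6 in epithelium. The sequences upstream of their starts are shown because these chains share a partner and differed in direction. They are the 250 bases before the transcription start, 5′ to 3′ on the gene's strand, from RefSeq on GRCm38.p6, and 23 of the 37 genes have an entry there. Itgb5 has 1 such start, at chr16:33829415-33829664 on the plus strand, and Itgb6 has a start at chr2:60722604-60722853 and another at chr2:60673694-60673943, both on the minus strand. Capitals mark matches on either strand to GGGCGG, the GC box, in the first and to the CArG box, a motif of serum response factor, in the last.
Itgb5: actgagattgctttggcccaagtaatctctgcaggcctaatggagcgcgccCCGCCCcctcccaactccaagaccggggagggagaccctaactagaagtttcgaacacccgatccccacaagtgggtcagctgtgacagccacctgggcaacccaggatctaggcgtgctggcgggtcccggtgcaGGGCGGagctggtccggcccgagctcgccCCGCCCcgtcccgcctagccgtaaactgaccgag
Itgb6, first start: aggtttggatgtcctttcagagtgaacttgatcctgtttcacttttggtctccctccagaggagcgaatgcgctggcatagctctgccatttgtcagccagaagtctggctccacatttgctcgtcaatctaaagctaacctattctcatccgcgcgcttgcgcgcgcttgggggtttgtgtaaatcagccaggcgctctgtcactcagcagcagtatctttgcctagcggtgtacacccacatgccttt
Itgb6, second start: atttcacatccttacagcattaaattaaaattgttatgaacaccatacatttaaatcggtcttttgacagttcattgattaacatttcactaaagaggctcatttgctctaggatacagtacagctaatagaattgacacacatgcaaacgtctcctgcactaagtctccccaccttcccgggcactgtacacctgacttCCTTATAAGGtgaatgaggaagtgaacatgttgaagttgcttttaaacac
The Itgb5 window holds 18 CpG and 65.2% G and C, the first Itgb6 window 11 CpG and 52.0%, and the second Itgb6 window 3 CpG and 38.0%. Itgb5 has 3 matches to GGGCGG, a motif that 32.7% of 32851 such windows hold, and the second Itgb6 window has 1 CArG box, which 1.47% hold. TATAAA, held by 12.4% of windows, and TGANTCA, the AP-1 motif, held by 6.75%, were searched on both strands too and have no match in the 3 windows. A match describes letters only and shows no binding.

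Itgb5 had 23.5, 25.3 and 28.4 FPKM in BBR mice 1 to 3 and 11.6, 18.5 and 14.3 FPKM in SASP mice 1 to 3. Each BBR mouse was above each SASP mouse. The difference in log2(FPKM + 1) was 0.78 ± 0.17, with an adjusted p of 0.0415. Itgb6 had 5.33, 6.07 and 7.34 FPKM with BBR and 16.9, 9.22 and 10.4 FPKM with SASP. All BBR mice were below all SASP mice, of which mouse 1 was the highest, but at −0.83 ± 0.23 in log2(FPKM + 1) the adjusted p was 0.0658. Their common partner Itgav had 7.93, 8.52 and 15.6 FPKM with BBR and 9.19, 10.9 and 10.3 FPKM with SASP, with overlapping groups and a difference of 0.01 ± 0.24 in log2(FPKM + 1) (adjusted p = 0.975). The ratio of Itgb6 to Itgb5 was 0.227, 0.240 and 0.259 with BBR and 1.46, 0.498 and 0.727 with SASP. Of the summed FPKM of integrin beta chains, Itgb6 took 3.62% to 3.85% with BBR and 6.20% to 12.5% with SASP, and Itgb5 took 14.1% to 17.0% and 8.62% to 12.4%. Itgb5 kept its direction but did not pass without BBR mouse 1 (adjusted p = 0.0888), BBR mouse 2 (0.101), SASP mouse 1 (0.142) or SASP mouse 3 (0.143), under median-ratio scaling (0.0504) or with the smooth muscle covariate (0.345). Itgb6 passed without BBR mouse 3 (0.0308), where 33.8% of all genes passed. It did not pass when any other mouse was left out (0.0829 to 0.1725) or with the smooth muscle covariate (0.436).

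The remaining integrin chains of this kind mostly had higher BBR values and none passed the test. Itga5, the alpha chain of the fibronectin receptor, had 20.5, 13.9 and 62.5 FPKM with BBR and 6.13, 18.8 and 10.3 FPKM with SASP. BBR mouse 3 was far above all others and the groups overlapped, so that a difference of 1.22 ± 0.58 in log2(FPKM + 1), had an adjusted p of 0.195. Without BBR mouse 3 the difference was 0.61, and with the smooth muscle covariate it was −0.27. In that mouse Itga5 made up 33.3% of the summed integrin alpha chains. Itga8, a receptor chain for nephronectin on mesenchymal cells, Itga9, which binds tenascin and the endothelial ligand VCAM-1, and Itgb3, the beta chain of the vitronectin receptor, had no overlap between groups, with the BBR mice higher. Their differences were 0.64, 0.93 and 0.61 in log2(FPKM + 1), with adjusted p values of 0.139, 0.0830 and 0.120. Itga2b, the partner of Itgb3 on platelets, was below the tested level at 0.07 to 0.71 FPKM, and Itgb8, a further TGF-beta activating chain, at 0.08 to 0.56 FPKM. Of 6 platelet markers, 2 were tested, and Pf4 passed as higher with BBR, beside 3.82% of all genes (0.80 ± 0.18 in log2(FPKM + 1), adjusted p = 0.0434). Gp6 had 1.15 to 2.95 FPKM with BBR and 0.64 to 1.15 FPKM with SASP, Gp1ba 0.25 to 0.37 and 0.09 to 0.18 FPKM, while Ppbp, Gp9 and Treml1 were at 0 to 0.06 FPKM in each mouse, and their part in the Itga2b levels was not tested.

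Of the collagen receptors, Itga1 and Itga2 were tested and neither passed. Itga1, the collagen receptor chain found on smooth muscle and fibroblasts, had 4.55, 5.04 and 9.93 FPKM with BBR and 2.43, 5.03 and 3.45 FPKM with SASP. BBR mouse 3 was the highest, and BBR mouse 2 and SASP mouse 2 were level. The difference in log2(FPKM + 1) was 0.66 ± 0.31, with an adjusted p of 0.191. Itga2, the epithelial and platelet collagen receptor chain, ranged from 1.41 to 2.83 FPKM over the 6 mice, and Itga10 and Itga11, chains of cartilage and of fibroblasts, from 0.26 to 0.99 FPKM.

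**Figure D3:**
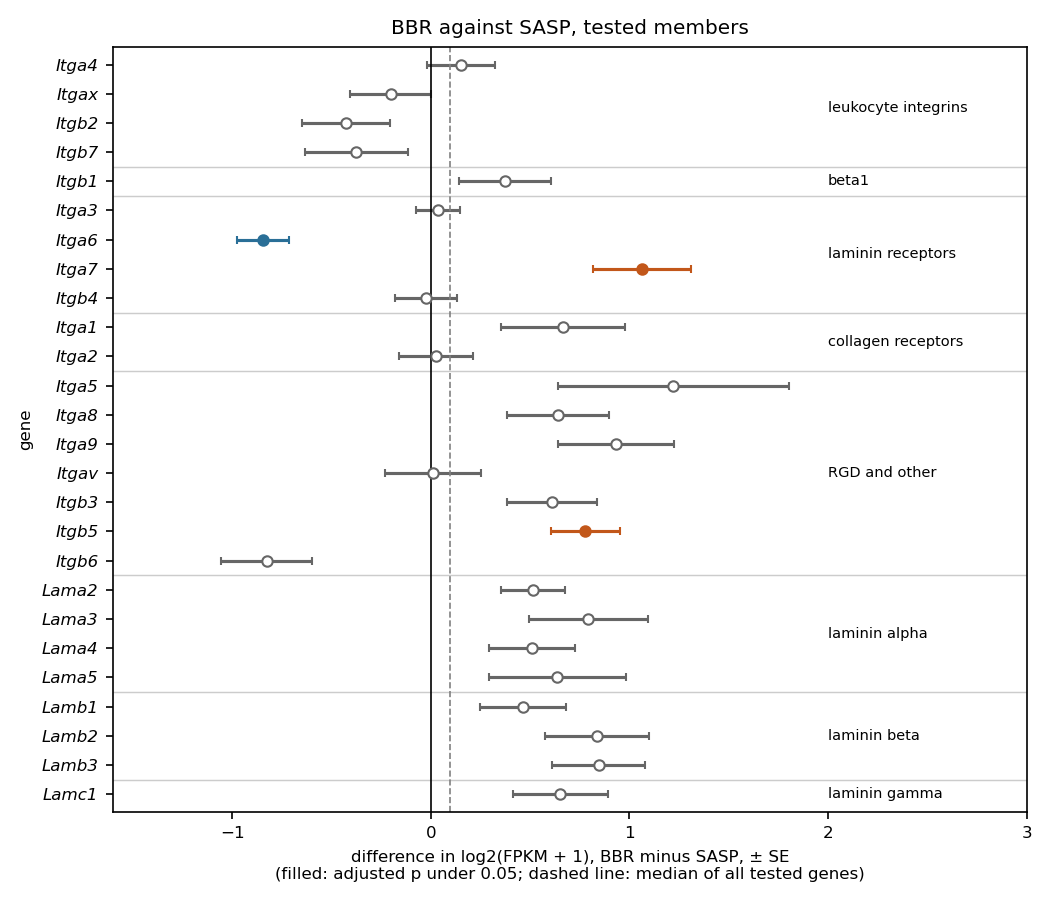
Difference in log2(FPKM + 1), BBR minus SASP, with its standard error for the tested genes reported singly, grouped by class. Filled points passed an adjusted p of 0.05 (Itga7 and Itgb5 higher, Itga6 lower), and the dashed line is the median of all genes tested, 0.10.

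Among the laminins, none of 9 tested chains passed the test, while 5 had an unadjusted p of at most 0.05 in limma, a level that 31.8% of all genes reached. The median difference over the 9 was 0.64 in log2(FPKM + 1), and 4 of the 9, all with BBR higher, had no overlap between groups, beside 21.3% of all genes in that direction and 37.9% in either. One of these, Lama2, entered the test through its BBR values alone, so the counts and the median are a description only. With the smooth muscle marker level as a covariate the median was 0.10. The laminin chains reported singly then ranged from −0.0685 for Lama5 to 1.09 for Lama3 (adjusted p = 0.295). The summed smooth muscle, fibroblast and endothelium markers lay higher in each BBR mouse than in any SASP mouse, the part of which was not tested. Drug and marker level cannot be told apart in the covariate fit. Laminin-332, the laminin of the epithelial basement membrane, contains Lama3 and Lamb3, which were the most abundant laminin alpha and beta chains in each mouse. Lamb3 had 39.9, 43.7 and 52.2 FPKM with BBR and 19.0, 35.8 and 21.9 FPKM with SASP. The BBR mice were all higher, and SASP mouse 2 came closest to them. The difference in log2(FPKM + 1) was 0.84 ± 0.23, with an adjusted p of 0.0658. Lama3 had 26.7, 43.1 and 17.4 FPKM with BBR and 15.1, 17.4 and 13.5 FPKM with SASP. BBR mouse 2 was the high one, and BBR mouse 3 and SASP mouse 2 were nearly level. The difference was 0.79 ± 0.30 in log2(FPKM + 1), with an adjusted p of 0.123. Neither gene passed with all mice. Lama3 was higher by 1.10 in log2(FPKM + 1) (adjusted p = 0.0129) without BBR mouse 3, where 33.8% of all genes passed. Lamb3 was higher by 1.11 (0.0285) without SASP mouse 2, where 3.40% of all genes passed. Neither passed when any other mouse was left out.

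Laminin-511, found beneath epithelium and vessels, is made of Lama5, Lamb1 and Lamc1. Lama5, its alpha chain, had 5.40, 4.66 and 6.12 FPKM with BBR and 1.78, 6.26 and 2.40 FPKM with SASP. SASP mouse 2 was the highest of the 6, and the other SASP mice were the lowest. The difference of 0.64 ± 0.35 in log2(FPKM + 1) had an adjusted p of 0.244. Without SASP mouse 2 it was 1.05 with an adjusted p of 0.0466, where 3.40% of all genes passed. Lama5 did not pass when any other mouse was left out (adjusted p of 0.301 to 0.572). Lamb1, the beta chain that laminin-511, laminin-411 and laminin-211 share, had 9.13, 11.2 and 8.99 FPKM with BBR and 4.82, 9.21 and 6.89 FPKM with SASP, with an overlap at SASP mouse 2. Lamc1, the gamma chain of most laminins, had 6.66, 10.3 and 9.78 FPKM with BBR and 3.58, 6.69 and 5.81 FPKM with SASP, where SASP mouse 2 just exceeded BBR mouse 1. Their differences were 0.47 ± 0.22 and 0.65 ± 0.24 in log2(FPKM + 1), with adjusted p values of 0.187 and 0.119. Lama4, the alpha chain of the vascular laminin-411, had 3.82, 6.23 and 5.53 FPKM with BBR and 2.41, 4.07 and 3.56 FPKM with SASP, at 0.51 ± 0.22 in log2(FPKM + 1) and an adjusted p of 0.158. Only SASP mouse 2 overlapped the BBR mice. Lama2, the alpha chain of laminin-211 around muscle and nerve, had 1.38, 1.61 and 1.17 FPKM with BBR and 0.42, 0.87 and 0.74 FPKM with SASP. All BBR mice were above 1 FPKM and all SASP mice below it, so the gene entered the test through the BBR mice. Its difference is drawn with those of the other tested genes as a description only.

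Lamb2, the beta chain of muscle and vessel basement membranes, lay between 6.32 and 9.71 FPKM with BBR and between 2.25 and 4.71 FPKM with SASP, at 0.84 ± 0.26 in log2(FPKM + 1) and an adjusted p of 0.0849. Lama1, a chain mainly of embryonic basement membranes, and Lamc3 stayed below the tested level, at 0.12 to 0.45 and 0.11 to 0.53 FPKM. SASP mouse 1 was the lowest of its group for 8 of the 9 tested laminins and SASP mouse 2 the highest for 8 of 9. The summed laminin level followed the same order, at 117.3, 149.9 and 150.8 FPKM in BBR mice 1 to 3 and 72.9, 114.2 and 86.4 FPKM in SASP mice 1 to 3.

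**Figure D4:**
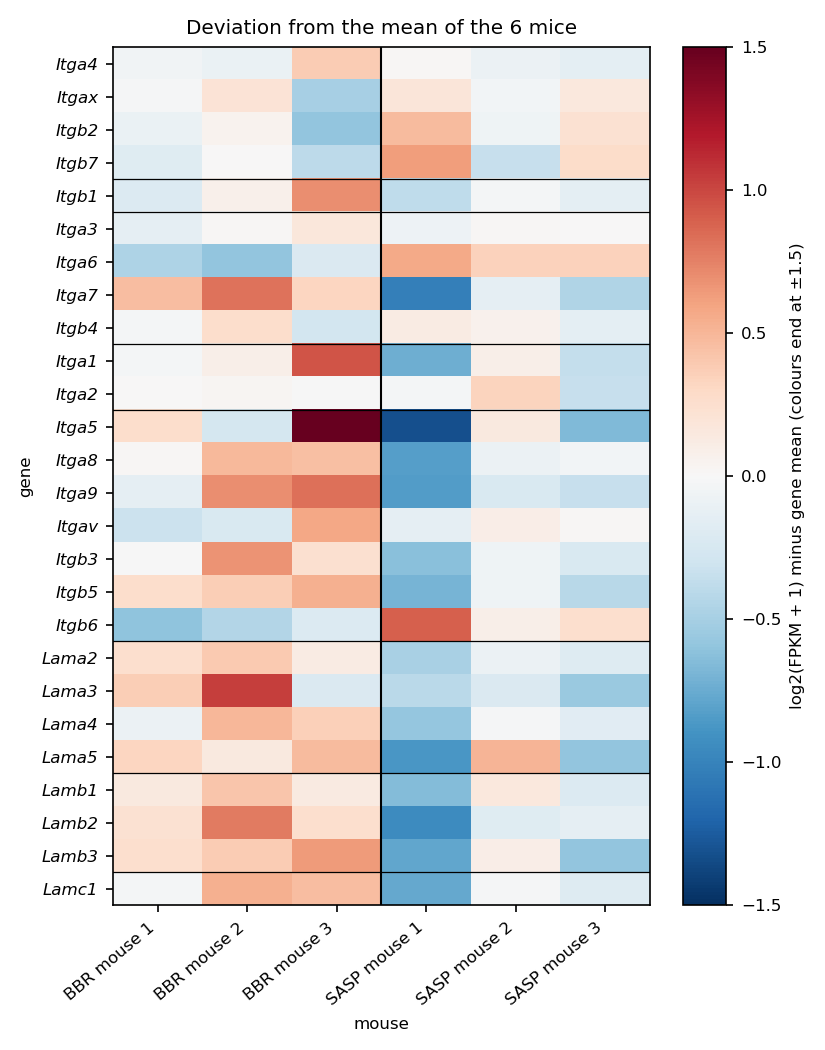
Level of each tested gene reported singly in each mouse as its deviation from the mean of the 6 mice in log2(FPKM + 1), with red above and blue below the mean. The laminin rows other than Lama3 are at their lowest in SASP mouse 1, while the 4 leukocyte integrin chains had their group's highest value in that mouse.

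The leukocyte integrin chains were scarce, and none of the 4 tested chains passed in limma, beside 8.86% of all genes. At an unadjusted p of at most 0.05 in limma there were 0 of 4, beside 31.8% of all genes. Their median difference was −0.29 in log2(FPKM + 1). Counts over only 4 genes do not show an absence of change. Itgb2, the beta chain shared by LFA-1, Mac-1 and their relatives, had 1.54, 1.83 and 0.81 FPKM in BBR mice 1 to 3 and 2.79, 1.61 and 2.2 FPKM in SASP mice 1 to 3. BBR mouse 3 was the lowest, and SASP mouse 2 lay among the BBR mice. The difference in log2(FPKM + 1) was −0.43 ± 0.22, with an adjusted p of 0.227. Itgax, the CD11c chain of dendritic cells and macrophages, had 1.35, 1.74 and 0.68 FPKM with BBR and 1.69, 1.31 and 1.65 FPKM with SASP, with overlapping groups. Itga4, which guides lymphocytes to the gut together with Itgb7, had 1.55, 1.48 and 2.47 FPKM with BBR and 1.68, 1.49 and 1.39 FPKM with SASP, BBR mouse 3 being high. Itgb7 itself had 0.91, 1.18 and 0.65 FPKM with BBR and 2.34, 0.71 and 1.62 FPKM with SASP. SASP mouse 1 was its highest and SASP mouse 2 lay within the BBR range. The differences of Itgax, Itga4 and Itgb7 were −0.20 ± 0.20, 0.15 ± 0.17 and −0.37 ± 0.26 in log2(FPKM + 1), with adjusted p values of 0.518, 0.558 and 0.349.

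The other 4 leukocyte chains were below the tested level. Itgal, the alpha chain of LFA-1 on lymphocytes, had 0.36, 0.57 and 0.27 FPKM with BBR and 1.48, 0.81 and 1.27 FPKM with SASP. Itgam, the CD11b chain of neutrophils and macrophages, had 0.69, 0.79 and 0.83 FPKM with BBR and 1.02, 1.02 and 0.92 FPKM with SASP. For both, each BBR mouse was below each SASP mouse. Itgae, the CD103 chain by which intraepithelial lymphocytes bind E-cadherin, had 0.64, 0.77 and 0.44 FPKM with BBR and 0.62, 0.47 and 0.59 FPKM with SASP, in the same range. Itgad, an alpha chain of macrophages, was listed at 0, 0.03 and 0.01 FPKM with BBR and at 0, 0.01 and 0 FPKM with SASP. The ratio of Itgal to its partner Itgb2 was 0.234, 0.312 and 0.333 with BBR and 0.531, 0.503 and 0.577 with SASP, without overlap and without a test. Over the 10 genes below the tested level, the highest value in any mouse was 1.48 FPKM, and 5 did not overlap between groups: Itga2b, Itga10 and Lamc3 with BBR higher, Itgal and Itgam with BBR lower. Of all 18268 genes, 5602 did not overlap, 3381 of them with BBR higher. Among the 12072 tested, 4575 did not overlap, 2568 of them with BBR higher. The rest of the 5602 lay among the 6196 genes below the tested level, which are the matching base for these 10 genes. At such low levels the count of 5 is a description only.

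Markers of cell types moved alongside these groups, and their part in the differences was not tested. With BBR, 10 of 10 smooth muscle and 10 of 10 fibroblast markers had an estimate above 0, beside 60.8% of all genes, and 0 and 3 of them passed as higher, beside 3.82% of all genes. The fibroblast markers summed to 260.8, 365.1 and 265.4 FPKM with BBR and 115.6, 212.5 and 192.9 FPKM with SASP. All 9 tested endothelium markers had an estimate above 0 too, and 2 of them passed as higher, beside 3.82% of all genes. Their sums were 26.5 to 45.4 FPKM with BBR and 13.3 to 19.3 FPKM with SASP. Enteric glia markers summed to 5.41 to 16.0 FPKM and 3.26 to 8.29 FPKM. The summed epithelium markers overlapped, at 7991 to 9075 FPKM with BBR and 8404 to 9461 FPKM with SASP. Of the 10, 3 passed as higher and 1 as lower, beside 3.82% and 5.04% of all genes. Single markers did not overlap for 6 of the 10, 3 higher and 3 lower with BBR, beside 37.9% of all genes in either direction. Leukocyte markers, the CD45 gene Ptprc among them, had an estimate below 0 for 9 of 10, beside 4735 of all 12072 genes tested. None of the 10 passed, while 5.04% of all genes passed as lower. These markers summed to 40.6, 54.2 and 32.2 FPKM with BBR and 94.5, 48.2 and 70.5 FPKM with SASP. SASP mouse 1, lowest in most laminins, was thus the lowest in smooth muscle, fibroblast and endothelium markers and the highest in leukocyte markers. Myeloid markers summed to 81.9 to 105.8 FPKM with BBR and 135.3 to 159.0 FPKM with SASP, and 1 of 7 passed as lower, beside 5.04% of all genes. T cell markers overlapped, at 4.58 to 6.73 and 3.47 to 8.08 FPKM. Platelet markers summed to 8.02 to 10.4 FPKM with BBR and 4.18 to 5.74 FPKM with SASP, and Pf4 alone had 6.45 to 8.16 and 2.91 to 4.75 FPKM. With the mean smooth muscle marker level as a covariate, 0.157% of all genes and none of the 27 integrin and laminin genes passed in limma, and the median differences were 0.10 for laminins, −0.09 for other integrins and 0.10 for leukocyte integrins in log2(FPKM + 1). The smooth muscle markers summed to 2888 to 6808 FPKM with BBR and 757.2 to 2321 FPKM with SASP, without overlap. This fit therefore cannot separate the drug from the marker level, and lost calls or changed signs in it show neither.

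**Figure D5:**
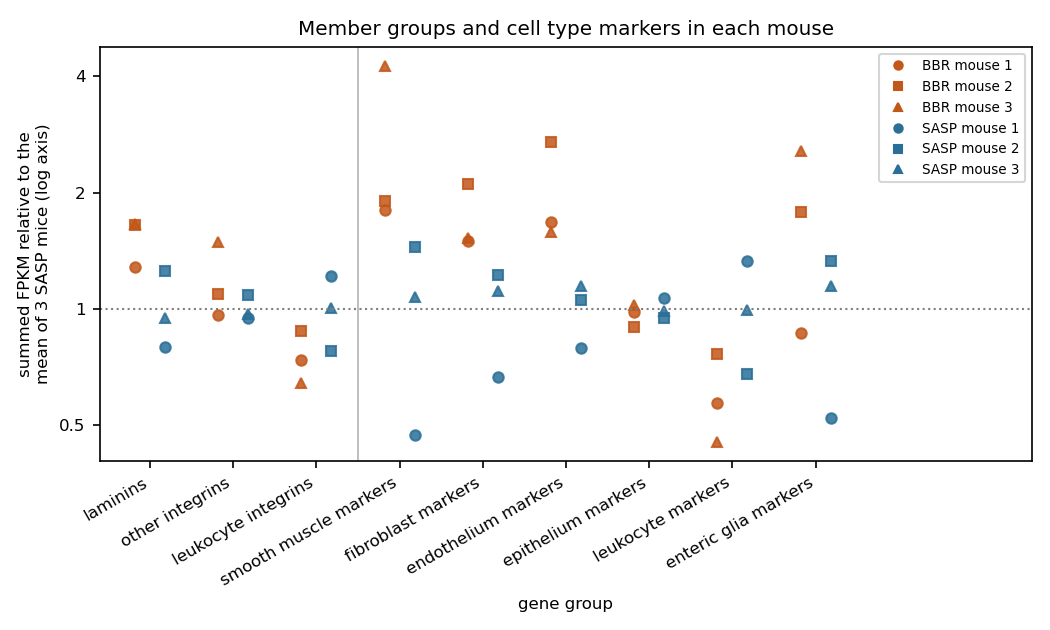
Summed FPKM of the laminins, other integrins, leukocyte integrins and 6 cell type marker lists in each mouse, divided by the mean of the 3 SASP mice (log axis), with BBR mice in orange and SASP mice in blue. Laminins were at 1.29 to 1.65 with BBR and 0.799 to 1.25 with SASP, the smooth muscle and fibroblast markers lay on the same side, and the leukocyte markers on the other with an overlap.

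Genes that work with integrins and laminins were read from lists. Of 15 hemidesmosome and laminin receptor genes, 12 were tested and 2 were higher with BBR, where 3.82% of all genes passed, with a median difference of 0.54 in log2(FPKM + 1). Sdc1, a heparan sulfate proteoglycan that binds laminin, had 70.8, 64.2 and 54.9 FPKM with BBR and 32.9, 39.4 and 33.5 FPKM with SASP (0.82 ± 0.13 in log2(FPKM + 1), adjusted p = 0.0186). Cd151, the tetraspanin that holds laminin-binding integrins in the membrane, had 83.9, 90.5 and 82.9 FPKM with BBR and 50.9, 60.8 and 54.7 FPKM with SASP (0.62 ± 0.10, adjusted p = 0.0207). For both genes the BBR mice lay well above the SASP mice, in the direction opposite to Itga6. Of 19 basement membrane partners of the laminins, 10 were tested and 10 had an estimate above 0 (60.8% of all genes did), with a median of 0.57, but none passed in limma, and 4 had an unadjusted p of at most 0.05, which 31.8% of all genes reached. Perlecan, Hspg2, had the smallest p, at a mean of 7.73 FPKM with BBR and 4.03 FPKM with SASP (0.79 ± 0.23 in log2(FPKM + 1), adjusted p = 0.0718).

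Of 29 genes of focal adhesions and integrin activation, 27 were tested and 2 passed, beside 8.86% of all genes, with a median of 0.25 in log2(FPKM + 1). Fermt1, the epithelial kindlin that activates integrins, was higher, at a mean of 29.2 FPKM with BBR and 17.8 FPKM with SASP (0.67 ± 0.15, adjusted p = 0.0410). Ptk2b, a kinase related to focal adhesion kinase, was lower, at 26.9 and 38.4 FPKM (−0.50 ± 0.12, adjusted p = 0.0496), and the other 25 did not pass. Of 19 integrin ligands, 14 were tested and 2 passed, 1 higher and 1 lower, beside 8.86% of all genes. The other 12 did not pass. The median difference was 0.75 in log2(FPKM + 1), beside 0.10 over all genes tested. Icam1, the ligand of LFA-1 on endothelium and inflamed epithelium, was lower with BBR, at 1.80, 2.25 and 2.21 FPKM against 9.24, 7.23 and 8.34 FPKM (−1.58 ± 0.14, adjusted p = 0.00341), and the groups were far apart. Tgfb3, a TGF-beta whose latent form integrins with the alpha-v chain release, was higher, at 2.35, 3.31 and 3.04 FPKM against 0.74, 1.43 and 1.21 FPKM (0.88 ± 0.18, adjusted p = 0.0351). Icam2, another ligand of LFA-1, overlapped between groups, at 0.99, 1.21 and 0.81 FPKM with BBR and 1.2, 0.57 and 0.97 FPKM with SASP.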

How the data were processed

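Transcript levels were measured by RNA sequencing in colorectal tissue of 6 colitis mice, 3 per drug. The authors filtered the reads, aligned them with Bowtie2 (2.2.5) and deposited FPKM values per gene, calculated with RSEM (1.2.12) and rounded, per the submitters' processing notes, which name the mouse build mm9. The labels name an Illumina library kit and the methods of the study a DNA nanoball platform, and the table does not settle which was used. RSEM divides shared reads among similar genes. Groups came from the treatment labels, and mouse numbers follow accession order.

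FPKM are not counts, so log2(FPKM + 1) was compared by the moderated linear model of limma (version 3.58.1, in R 4.3.3, trend option on) in 12072 genes with at least 1 FPKM in at least 3 of 6 mice. This scale understates changes of genes with low levels. Two-sided p-values were adjusted after Benjamini and Hochberg over every gene tested, and an adjusted p under 0.05 counted as past the threshold. Exact permutation was not used, since groups of 3 mice allow no p under 0.1. The fit was tested on simulated, normally distributed values with 200 of 12072 genes shifted by 2 in log2. It recovered 89% of these, and 3.26% of its calls were false. The largest difference among the 27 tested genes was 1.22, so recovery at their sizes was not tested. Differences are BBR minus SASP, with standard errors from limma. Depth was estimated from short transcripts listed above 0 in 1 mouse only, taken as 1 read, with 31 to 56 genes per mouse.

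The 37 genes, the pathway and marker lists and the alternatives were chosen with earlier results of these data known. Values in every mouse were given for genes past the threshold, the most abundant gene and the gene of smallest p of each class, the leukocyte integrins and the chains of 4 laminin trimers, except 1 laminin chain that is counted but not reported here by itself, and others were given by range, apart from known partners added after the values were seen. Of each pathway list, up to 3 genes past the threshold were named, or the gene of smallest p. The alternatives changed the filter, the pseudocount, the scaling, the variance model, the weights, the mice used and the threshold, or added the mean level of smooth muscle markers as a covariate.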

Additional observations from a re-analysis of the deposited data

How the results depend on the processing

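The counts of genes past the threshold depended on the processing, and the cause was not tested. No paired analysis was possible because the labels give no replicate numbers that mice of both groups share. Over all genes, 1069 passed (43.1% of them higher with BBR), and 591 passed with no filter, 1737 with quantile normalization, 1684 with median-ratio scaling (29.6% higher), 7126 with array quality weights (65.1% higher), 19 with the smooth muscle covariate (2 higher), 3837 at an unadjusted p of at most 0.05, and 51 to 4018 when 1 mouse was left out. Median-ratio scaling moved the median of all genes by −0.12. The integrins other than those of leukocytes had 3 genes past the threshold, 1 with no filter, 6 with array weights, 0 with the covariate, 7 at the unadjusted threshold and 0 to 4 when 1 mouse was left out (0 without BBR mouse 1, SASP mouse 1 or SASP mouse 3, 1 without BBR mouse 2, 4 without BBR mouse 3). The laminins had 0, but 1 with quantile normalization, 7 with array weights, 5 at the unadjusted threshold and 0 to 2 when 1 mouse was left out, with 2 without BBR mouse 3 and 2 without SASP mouse 2, where 33.8% and 3.40% of all genes passed. The leukocyte integrins had 0 in all but the array weights, with 2, and no such gene was left at a mean of at least 5 FPKM.

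Of the tested genes reported singly, 14 kept their direction under each alternative in which they passed the filter, Itga6, Itga7, Itgb5 and Itgb6 among them, and 12 did not. With no filter, Itga7 (adjusted p = 0.0788) and Itgb5 (0.0656) no longer passed, and with a pseudocount of 0.1 Itga7 did not (0.0508). Differences in log2(FPKM + 1) that changed sign with the covariate were −0.0685 for Lama5, 0.14 for Itgax, 0.0743 for Itgb2, 0.20 for Itgb7, −0.16 for Itga1, −0.0506 for Itga2, −0.13 for Itga3, 0.20 for Itgb4, −0.27 for Itga5, −0.50 for Itgav and −0.18 for Itgb1. Scaling turned Itga2 (−0.11 by quantile, −0.0612 by median ratio), Itga3 (−0.0935 by median ratio) and Itgav (−0.0492 and −0.11). Array weights turned Itga3 (−0.11), Itgb4 (0.0907), Itgav (−0.31) and Itgb1 (−0.0042). Leaving out 1 mouse turned Itga4 (−0.0014, at most 0.241 in such fits), Itga3 (−0.0399), Itgb4 (0.11) and Itgav (−0.27, at most 0.178) without BBR mouse 3, Itgb4 (0.03) and Itgav (−0.05) without SASP mouse 1, Itgb4 (0.0015) without SASP mouse 2 and Itga2 (−0.14) without SASP mouse 3. Depth limits the genes below 1 FPKM, for which a few reads can set the value.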
